A study of Mus musculus with 22 samples.

Results

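The comparison described here sets 4 livers of mice that received the SR-BI inhibitor BLT-1 before lipid nanoparticles against 8 livers that received the same dose of nanoparticles alone, 12 of the 22 livers measured. The libraries were chosen by the group names at the head of the columns, and every gene row was used, with the spike-in rows left out. All mice were C57BL6J, and their livers were perfused with buffer and taken 24 h after the particles. The BLT-1 plus particles group (animals 6, 7, 19 and 20) had BLT-1 at 1 mg/kg 24 h before particles at 0.2 mg/kg. The particles alone group (animals 4, 5, 17, 18, 30, 31, 38 and 39) had particles at 0.2 mg/kg. The particles carried a Dicer-substrate interfering RNA, which the column names tie to Hprt. The other 10 livers, 3 that had particles at 2 mg/kg and 7 controls for which the labels give no treatment, entered the fits to share the estimate of spread. No liver analysed here had BLT-1 alone, and the labels name no solvent for it, so an effect of the compound and one of its injection cannot be told apart. The labels give 1 library per animal number and nothing on cages or days.

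SR-BI, the product of Scarb1, is the hepatocyte receptor that binds high-density lipoprotein and takes up its cholesteryl esters without degrading the particle. BLT-1 blocks this lipid transfer and is also known as a copper chelator. Lipid nanoparticles pick up apolipoprotein E in plasma and are taken up largely by hepatocytes, and the RNA they carry can be read as foreign by sensors that switch on interferon genes. The comparison asks what the inhibitor changed in the liver transcriptome on top of the particles.

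Levels are given as ppm, parts of a library gene total of 1000000 after scaling by the trimmed mean of M values (TMM). Means are given ± SD over 4 livers with BLT-1 plus particles and 8 with particles alone. The libraries are 3′ end mRNA libraries, and the values behave like scaled estimates, not plain reads. Libraries held 9668568 to 13219831 recovered units in the BLT-1 plus particles group and 8529057 to 13939588 in the particles alone group. Spike-ins made up 4.44 ± 1.60% of the units with BLT-1 plus particles and 5.04 ± 1.23% with particles alone. Among the 34 pairs of libraries of the same group the chi-square per degree of freedom was 12.6 to 47.0, so no library of the 12 was a copy of another in its group. Because whole liver was used, fewer cells of a type and less RNA per cell cannot be told apart. Hepatocyte markers were abundant in all 12 livers, with Alb at 10812 to 12173 ppm in the BLT-1 plus particles group and 10341 to 13152 in the particles alone group.

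Hprt (ENSMUSG00000025630.9), the purine salvage enzyme and named target of the RNA, did not differ between the groups beyond its spread. It stood at 28.9, 28.1, 24.2 and 27.8 ppm in the 4 BLT-1 plus particles livers, against 25.99 to 30.9 (median 27.5) in the 8 livers with particles alone and 24.8 to 38.7 (median 28.4) in the 7 controls. All ranges overlap. The difference was log2 -0.03 (95% interval -0.23 to 0.17; exact permutation test over the 12 livers, two-sided p = 0.655, adjusted over 2 genes 0.655, with 0.00202 the smallest p that 495 arrangements allow). Scarb1 (ENSMUSG00000037936.16) stood at 19.96, 20.5, 18.2 and 19.8 ppm with BLT-1 plus particles, against 17.1 to 21.3 (median 17.9) with particles alone. Its difference was log2 0.09 (95% interval -0.08 to 0.26; exact two-sided permutation p = 0.164, adjusted over 2 genes 0.327). Neither interval reaches the size of any called change below.

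Across the transcriptome the 2 groups were close. Limma was fitted to all 22 libraries (the main fit). Of 9599 genes tested, 9 were called at an adjusted p below 0.05, or 0.0938%. Of these 3 were higher (0.0313%) and 6 lower (0.0625%) in the BLT-1 plus particles group. At an unadjusted p below 0.05 there were 814 genes (8.48%), 424 higher (4.42%) and 390 lower (4.06%). On the deposited spike-in scale 0 genes were called (limma, 166 at an unadjusted p below 0.05) and the median of all genes was 0.17. With 4 livers against 4 in shared ranges of animal number 2 were called, and only Pecam1 was among the 9. With only the 12 livers 5 were called, of which 3 (Iigp1, Rtp4 and Tsc22d3) were among the 9. Limma called 2 genes without BLT-1 plus particles liver 6, 3 without liver 7 and 25 without liver 19. The edgeR test of the recovered whole numbers called 10 of 10766 genes (0.0929%), the same 9 and BC023105, and DESeq2 called 95, among them all 9. The 95% interval of the fold change lay within 2-fold of no change for 8784 genes, or 91.5%, and the median log2 fold change of all genes was 0.003. All 4 BLT-1 plus particles livers lay above all 8 others for 102 genes (1.06%) and below them for 80 (0.833%). Among the called genes the lower ones were Iigp1, Rtp4 and Samd9l, which are interferon-induced, Pecam1, Ppfibp2 and the predicted gene Gm19426. The higher ones were Tsc22d3, Fmo5 and Gstt3.

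**Figure D1:**
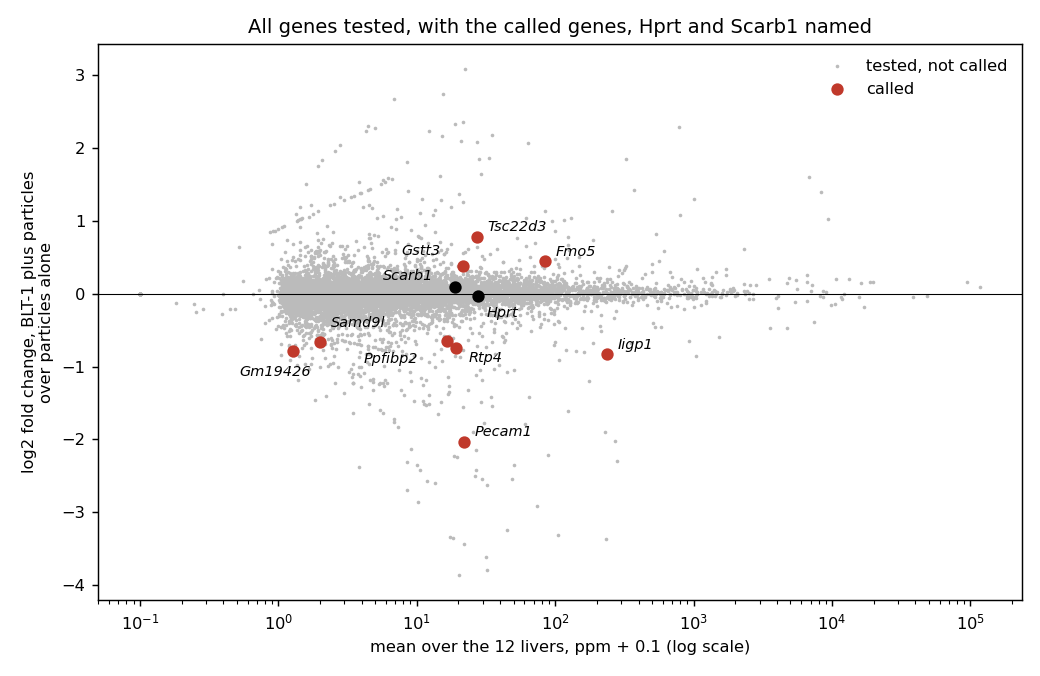
Mean level over the 12 livers (ppm plus 0.1, log scale) against the log2 fold change of BLT-1 plus particles over particles alone for each of the 9599 genes tested. The 9 called genes (red) lie between -2.03 and 0.79, while Hprt and Scarb1 (black) lie near 0.

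The called genes separate fully by liver. Iigp1 (ENSMUSG00000054072.13), an immunity-related GTPase induced by interferon, was at 134, 138, 189 and 160.0 ppm in the BLT-1 plus particles livers, against 227 to 323 (median 279) with particles alone and 111 to 152 (median 133) in controls. It fell (log2 fold change -0.83, 95% interval -1.06 to -0.59, limma adjusted p = 0.00349). The 4 BLT-1 plus particles livers lie below all 8 livers with particles alone and overlap the controls. Rtp4 (ENSMUSG00000033355.7), an interferon-induced protein known as a receptor transporter, was at 12.5, 11.6, 14.1 and 13.4 ppm with BLT-1 plus particles, against 19.6 to 25.7 (median 22.6) with particles alone and 7.84 to 10.1 (median 8.86) in controls. It fell as well (log2 fold change -0.74, 95% interval -0.96 to -0.52, limma adjusted p = 0.00454), to values above all 7 controls. Samd9l (ENSMUSG00000047735.15), an interferon-induced protein that restrains translation, was low everywhere, at 0.926, 0.920, 1.28 and 1.21 ppm with BLT-1 plus particles, against 1.67 to 3.31 (median 2.09) with particles alone (log2 fold change -0.66, 95% interval -0.91 to -0.40, limma adjusted p = 0.0285). Iigp1 and Rtp4 were below the threshold without any 1 of the 12 livers, whereas Samd9l lost its call without BLT-1 plus particles liver 6, 7 or 20 or particles alone liver 30 or 31, at an adjusted p of up to 0.139 by limma. With the number range as a term Iigp1 and Rtp4 were called and Samd9l was not (0.0910). With 4 livers against 4 in the shared ranges Iigp1 and Rtp4 lost their calls (both 0.121 by limma), as did Samd9l (0.388).

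**Figure D2:**
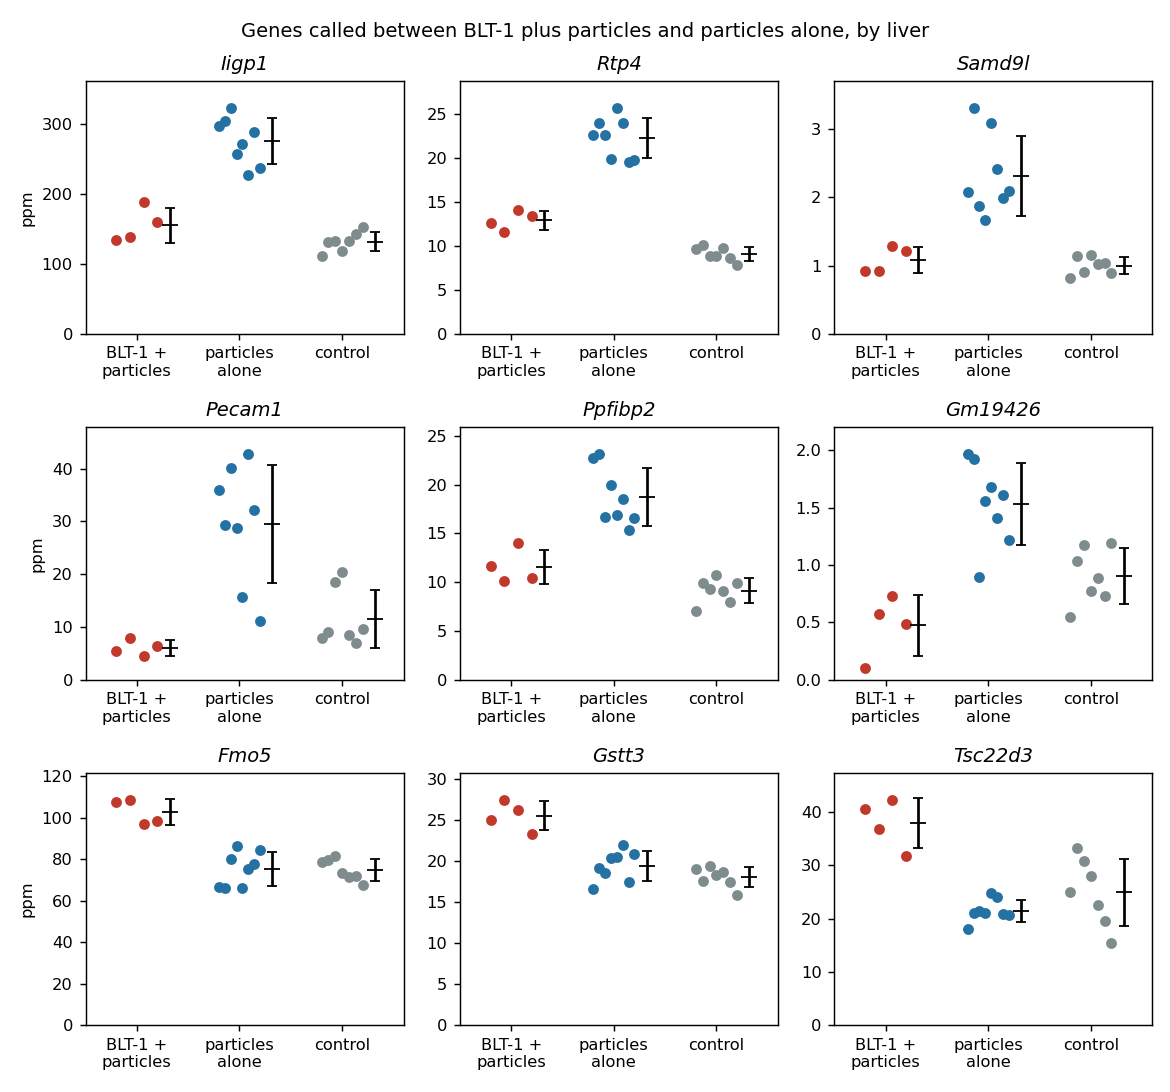
Levels of the 9 called genes (vertical axes, ppm, starting at 0) in each liver of the BLT-1 plus particles (n = 4), particles alone (n = 8) and control (n = 7) groups. Points are livers, the bar is the mean and the error bar is 1 SD. In each panel the 4 BLT-1 plus particles livers and the 8 livers with particles alone do not overlap.

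Most interferon genes were lower with BLT-1, and 3 of them fell. Type I interferons signal through a complex with STAT2 and IRF9 to a promoter motif called ISRE, and interferon gamma acts through a motif called GAS. Of 44 listed type I interferon genes 37 were tested. Among them 2 fell (Rtp4 and Samd9l), 0 rose, 17 were lower and 0 higher at an unadjusted p below 0.05, and 9 had all 4 BLT-1 plus particles livers below all 8 others. The median log2 fold change of the list was -0.35, beside 0.003 for all genes tested. Of 36 genes of the interferon gamma response and antigen presentation 32 were tested. Iigp1 fell, 0 rose, 13 were lower and 1 higher at an unadjusted p below 0.05, 6 lay wholly below, and the median was -0.32. Over both lists 61 of 69 tested members had a fold change below 0, 30 were lower at an unadjusted p below 0.05 and 15 lay wholly below. With any 1 liver left out the medians stayed between -0.46 and -0.29 for type I genes and between -0.38 and -0.22 for interferon gamma genes. DESeq2 on the recovered numbers called 5 and 6 genes of the lists lower and 0 higher. Of all genes tested 4.42% were higher and 4.06% lower at an unadjusted p below 0.05. Wholly above lay 1.06% and wholly below 0.833%. List counts here and below are to be read beside these shares. No test of a list was made, and members share regulators, so they are not independent.

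Among the signal transducers and effectors, several genes separated the groups without passing the threshold. Irf9, the DNA-binding factor of type I signalling, averaged 6.54 ± 0.654 ppm with BLT-1 plus particles and 8.87 ± 1.09 with particles alone (log2 -0.39), while Stat2 averaged 4.87 ± 1.02 ppm with BLT-1 plus particles and 5.72 ± 1.27 with particles alone with an interval of -0.67 to 0.30. Ifi47, an immunity-related GTPase, was at 11.6, 14.1, 14.2 and 13.1 ppm with BLT-1 plus particles, against 17.2 to 26.3 (median 20.7) with particles alone (log2 fold change -0.60, 95% interval -0.86 to -0.35, limma adjusted p = 0.0593). Gbp7, a guanylate-binding protein that acts on vacuoles of pathogens, was at 5.04, 5.29, 7.68 and 4.83 ppm with BLT-1 plus particles, against 8.72 to 18.8 (median 10.01) with particles alone (log2 fold change -0.85, 95% interval -1.22 to -0.49, limma adjusted p = 0.0716). For both genes the groups do not overlap. Igtp, another immunity-related GTPase, was at 15.4, 14.4, 32.5 and 21.5 ppm with BLT-1 plus particles, against 29.9 to 67.8 (median 41.04) with particles alone (log2 fold change -1.03, 95% interval -1.52 to -0.54, limma adjusted p = 0.0858), and here BLT-1 plus particles liver 19 reaches into the particles alone range. Ifit1, which binds foreign RNA by its cap, was at 7.61, 8.28, 10.6 and 10.2 ppm with BLT-1 plus particles, against 15.3 to 22.1 (median 17.7) with particles alone (log2 fold change -0.92, 95% interval -1.43 to -0.41, limma adjusted p = 0.164), with no overlap. Psmb9 and Psmb10, subunits of the immunoproteasome, averaged 30.9 ± 4.76 and 125 ± 20.4 ppm with BLT-1 plus particles, against 49.3 ± 13.1 and 173 ± 16.6 with particles alone (log2 -0.63 and -0.47, limma adjusted p = 0.113 and 0.0858). Members of the Gbp, Ifit, Tgtp and H2 families have near-identical copies, so the reads could be split between them.

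Not every interferon gene was lower. Ifi27, a mitochondrial protein induced by type I interferon, was at 520.3, 572, 519 and 499 ppm with BLT-1 plus particles, against 448 to 549 (median 509.9) with particles alone and 229 to 321 (median 269) in controls. Both particle groups are apart from the controls and overlap each other, and the interval between them was -0.13 to 0.25 on the log2 scale. B2m, the light chain of MHC class I, averaged 2359.7 ± 96.2 ppm with BLT-1 plus particles and 2359 ± 61.5 with particles alone (95% interval of the log2 fold change -0.11 to 0.11). Ifitm3, which blocks viral entry, averaged 885 ± 57.5 ppm with BLT-1 plus particles and 934 ± 162 with particles alone (interval -0.29 to 0.17). The MHC class I heavy chain H2-K1 averaged 418 ± 28.9 ppm with BLT-1 plus particles and 395 ± 20.1 with particles alone (log2 0.08), and H2-D1 averaged 225 ± 12.3 ppm with BLT-1 plus particles and 199 ± 10.4 with particles alone (log2 0.17). H2-D1 was the member higher at an unadjusted p below 0.05. These intervals exclude a fall of the size seen for Iigp1. Cxcl9, a chemokine that draws T cells, was at 26.02, 29.2, 87.4 and 61.7 ppm with BLT-1 plus particles, against 28.98 to 121 (median 36.4) with particles alone, and its interval of -0.64 to 0.86 leaves a change in either direction undetectable here.

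**Figure D3:**
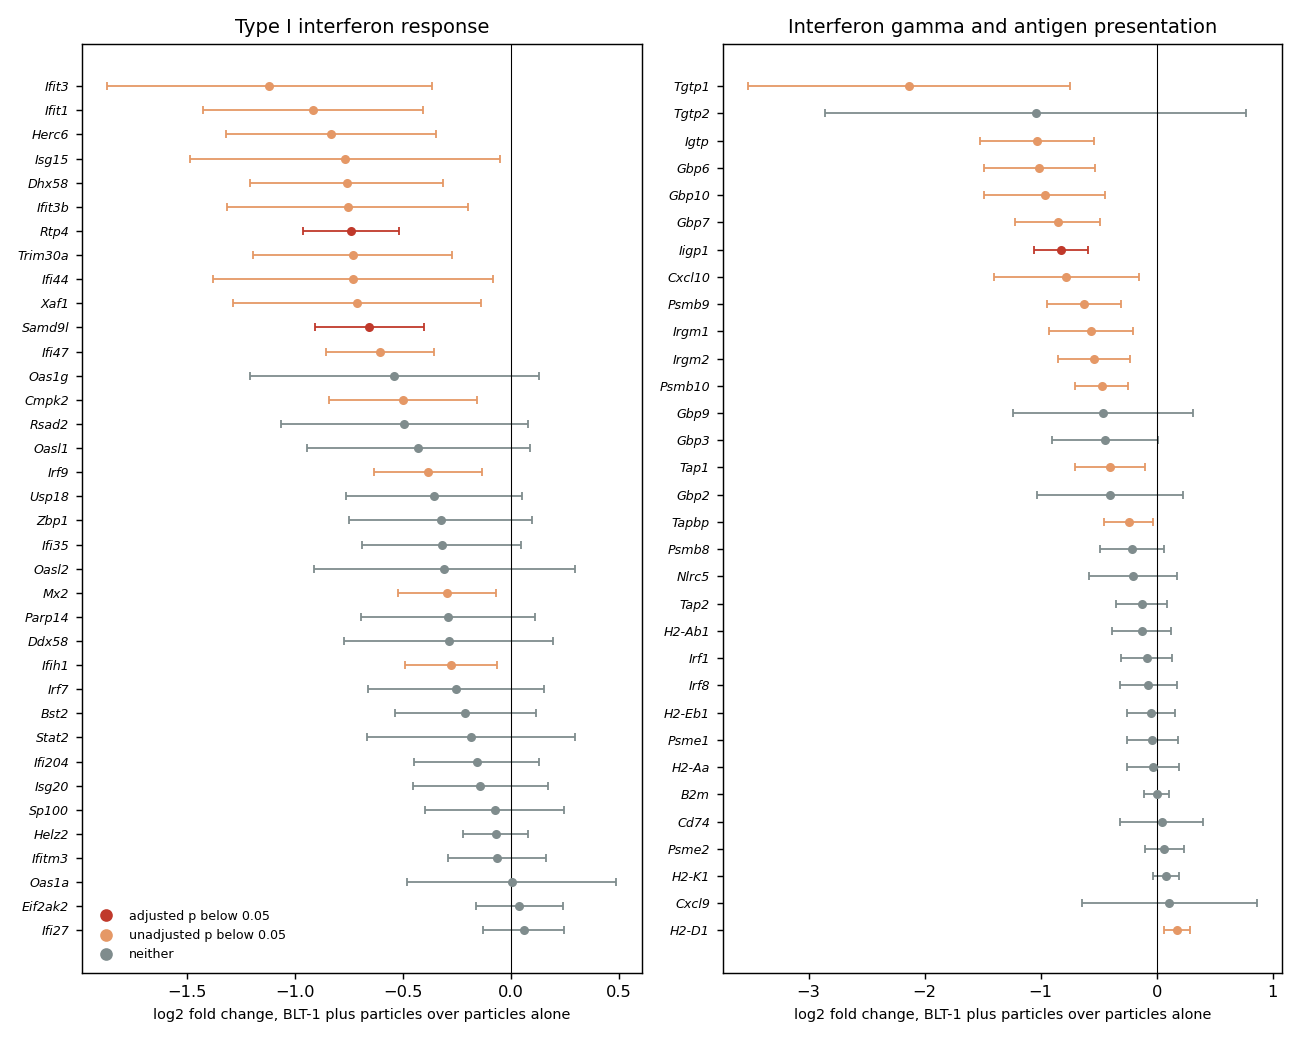
Log2 fold change of BLT-1 plus particles over particles alone with its 95% interval for 36 tested type I interferon genes (left) and the 32 tested interferon gamma and antigen presentation genes (right), ordered by value. Of these 68 genes 60 lie below 0, from -2.13 for Tgtp1, whose values move in coarse steps, upward, and B2m, H2-K1 and H2-D1 sit at or just above 0 with short intervals.

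Both groups were also set against the 7 controls, which they share, so the comparisons are not independent. Of the 37 type I genes 14 were called higher in the BLT-1 plus particles group (median log2 fold change 0.50) and 31 in the particles alone group (median 0.90), with 0 lower in each. Of the 32 interferon gamma genes it was 15 (median 0.50) and 24 (median 0.87), with 0 lower in each. Of all genes tested 2.28% were called higher and 1.22% lower with BLT-1 plus particles, and 3.91% higher and 2.74% lower with particles alone. The groups differ in size, which bears on these counts. Iigp1 itself was not called against controls with BLT-1 plus particles (log2 0.23, limma adjusted p = 0.333) and was called with particles alone (log2 1.06, limma adjusted p = 3.19e-07).

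The interferon genes were further apart in the first range of animal numbers than in the second. Both groups have 2 livers each among animals 1 to 13 and 2 each among animals 14 to 26, and only particles alone has livers among animals 27 to 39. Within the first range 64 of the 69 members were lower with BLT-1 (median log2 difference -0.55), and within the second 47 were (median -0.13), beside a median of 0.00 for all genes tested in each. Iigp1 differed by -1.14 and -0.73, and Rtp4 by -0.90 and -0.59 in the first and second range. What the numbers stand for is not given, and with 2 livers a side no test within a range was made. Liver 19 had the highest Gbp7, Igtp and Cxcl9 of the 4 BLT-1 plus particles livers.

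T and NK cell markers are given beside the interferon genes. Of 17 listed, 12 had a row and 3 were tested with 0 called, and the summed level of the 12 was 8.05 to 12.2 ppm with BLT-1 plus particles, against 13.02 to 17.6 with particles alone. Each of the 12 overlapped between the groups when taken singly. Of the 3 tested, Thy1, a surface protein of T cells and other cells, was furthest apart, at 0.411, 0, 0.0914 and 0.0806 ppm with BLT-1 plus particles, against 0.219 to 4.88 (median 1.45) with particles alone (log2 -1.19, limma adjusted p = 0.263). Cd3e, a defining part of the T cell receptor complex, was at 0 in 4 of the 12 livers and reached at most 0.230 ppm with BLT-1 plus particles and 0.333 with particles alone. Cd8b1, of cytotoxic T cells, was at 0 in 7 of the 12. Ccl5, a chemokine of these cells, averaged 6.56 ± 1.06 ppm with BLT-1 plus particles and 7.47 ± 1.18 with particles alone, and Nkg7, a protein of their granules, averaged 1.84 ± 0.528 ppm with BLT-1 plus particles and 1.93 ± 0.884 with particles alone. Summed monocyte markers were 105 to 117 ppm with BLT-1 plus particles and 102 to 128 with particles alone, and summed Kupffer cell markers 101 to 132 with BLT-1 plus particles and 97.1 to 132 with particles alone. Their part in the interferon result was not tested.

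Promoter windows were searched for the motifs that the pathway uses, and 4 windows that hold an ISRE are printed because their genes differ in fold change. They come from RefSeq windows of 300 bases on GRCm38.p6, from 250 bases before the start to 50 after it, while the expression files use GRCm39. The ISRE was searched as GAAANNGAAA on both strands, and its matches are in capitals. Ifit1, Igtp and Gbp7 were lower with BLT-1 without a call, and B2m had a fold change near 0.
Ifit1 (chr19:34640639-34640938, plus strand): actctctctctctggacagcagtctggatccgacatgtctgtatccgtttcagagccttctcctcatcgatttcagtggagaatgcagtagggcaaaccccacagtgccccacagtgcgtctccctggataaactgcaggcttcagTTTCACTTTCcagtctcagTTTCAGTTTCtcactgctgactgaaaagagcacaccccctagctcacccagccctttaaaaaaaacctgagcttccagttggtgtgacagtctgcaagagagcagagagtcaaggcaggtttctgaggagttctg
Igtp (chr11:58199306-58199605, plus strand): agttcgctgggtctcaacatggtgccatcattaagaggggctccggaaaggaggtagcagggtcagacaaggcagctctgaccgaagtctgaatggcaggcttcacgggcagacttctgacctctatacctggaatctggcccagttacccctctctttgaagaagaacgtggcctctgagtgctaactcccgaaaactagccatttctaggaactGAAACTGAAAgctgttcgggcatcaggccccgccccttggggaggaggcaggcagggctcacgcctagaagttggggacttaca
Gbp7 (chr3:142530086-142530385, plus strand): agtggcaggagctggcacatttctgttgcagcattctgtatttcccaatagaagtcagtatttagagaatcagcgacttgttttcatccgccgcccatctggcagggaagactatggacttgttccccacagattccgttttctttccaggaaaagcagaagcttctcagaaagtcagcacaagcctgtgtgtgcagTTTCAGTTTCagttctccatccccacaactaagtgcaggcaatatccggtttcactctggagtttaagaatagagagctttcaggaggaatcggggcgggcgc
B2m (chr2:122147437-122147736, plus strand): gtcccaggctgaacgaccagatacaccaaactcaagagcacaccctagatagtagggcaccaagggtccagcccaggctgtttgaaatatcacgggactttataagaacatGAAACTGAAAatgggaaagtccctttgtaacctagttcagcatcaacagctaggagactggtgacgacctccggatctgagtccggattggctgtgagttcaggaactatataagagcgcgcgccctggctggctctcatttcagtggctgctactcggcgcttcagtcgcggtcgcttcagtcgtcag
Of the 69 tested interferon members 52 had a window, and 25 of them (48.1%) held an ISRE match, while those of Samd9l, H2-K1 and Cxcl9 held none, beside 3.87% of the 7135 tested genes with a window and 3.44% of all 32851 windows. The share was 52.2% (12 of 23) among members lower at an unadjusted p below 0.05 and 44.8% (13 of 29) among the others, shares given without a test. The GAS motif, searched as TTCNNNGAA, was in 26.9% of the members' windows, beside 8.04% of those of tested genes. A match describes letters in a window and shows no binding.

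Pecam1 (ENSMUSG00000020717.20), an adhesion molecule of endothelial cells and platelets, had the largest fold change among the called genes. It stood at 5.45, 7.82, 4.39 and 6.45 ppm with BLT-1 plus particles, against 11.2 to 42.8 (median 30.7) with particles alone and 6.98 to 20.4 (median 8.97) in controls. It fell (log2 fold change -2.03, 95% interval -2.69 to -1.37, limma adjusted p = 0.00844), the groups do not overlap, and the difference was log2 -2.15 in the first and -2.47 in the second shared number range. It was also called in the 4 against 4 fit within those ranges, at an adjusted p of 0.0356 by limma. Without BLT-1 plus particles liver 6 the adjusted p was 0.0671 by limma. The particles alone group was above controls (log2 1.28, limma adjusted p = 0.00464), with a spread of 11.2 to 42.8. Of 17 tested sinusoidal endothelial markers Pecam1 was the only one called, 1 was higher at an unadjusted p below 0.05 and the median was -0.02. Kdr, the receptor of vascular endothelial growth factor, averaged 7.02 ± 0.540 ppm with BLT-1 plus particles and 6.13 ± 0.477 with particles alone, and Clec4g, a sinusoidal lectin, averaged 17.1 ± 1.86 ppm with BLT-1 plus particles and 16.2 ± 0.978 with particles alone. Stab2, a hyaluronan receptor of these cells, had an interval of -0.37 to 0.28.

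Ppfibp2 (ENSMUSG00000036528.17), a gene of the liprin family, was at 11.6, 10.1, 13.99 and 10.4 ppm with BLT-1 plus particles, against 15.3 to 23.2 (median 17.7) with particles alone and 7.07 to 10.8 (median 9.25) in controls. It fell (log2 fold change -0.65, 95% interval -0.90 to -0.41, limma adjusted p = 0.0236), and the call was lost without BLT-1 plus particles liver 6, 7 or 20 (adjusted p of up to 0.128 by limma). The predicted gene Gm19426 averaged 0.473 ± 0.267 ppm with BLT-1 plus particles and 1.53 ± 0.357 with particles alone, near the floor of the test, and fell by 0.79 on the log2 scale (limma adjusted p = 0.0201; 0.1002 without liver 6, 0.0553 without liver 7 and 0.0512 with the number range as a term). BC023105, called by edgeR alone (log2 -1.77, edgeR adjusted p = 0.0322), was below the level tested by limma, at 0.206, 0.690, 0.274 and 0.564 ppm with BLT-1 plus particles, against 1.15 to 1.92 (median 1.48) with particles alone.

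Of the 3 called genes that rose with BLT-1, 1 is a glucocorticoid target. It had the largest fold change of the 3 but also the largest limma p. Tsc22d3 (ENSMUSG00000031431.14), which encodes the glucocorticoid-induced leucine zipper, was at 40.6, 36.9, 42.3 and 31.8 ppm with BLT-1 plus particles, against 18.2 to 24.8 (median 21.1) with particles alone and 15.5 to 33.2 (median 25.02) in controls. It rose (log2 fold change 0.79, 95% interval 0.48 to 1.09, limma adjusted p = 0.0285), with log2 0.95 and 0.76 in the shared number ranges, and the adjusted p exceeded the threshold in 8 of the 12 fits that left out 1 liver, with 0.139 the highest. With the number range as a term the adjusted p by limma was 0.0910. Of 19 tested glucocorticoid-responsive genes Tsc22d3 was the only one called in the main fit. Another 6 were higher and 1 lower at an unadjusted p below 0.05, 3 lay wholly above, and the median was 0.31. By number range the median was 0.48 in the first and 0.17 in the second. Against controls the list median was -0.23 with particles alone (3 called lower, 0 higher). With BLT-1 plus particles it was 0.02 (1 called lower, 2 higher), so as a list these genes lay near control level. Ddit4, an inhibitor of mTOR signalling, was at 9.26, 12.5, 11.7 and 8.22 ppm with BLT-1 plus particles, against 2.84 to 7.61 (median 4.90) with particles alone (log2 fold change 0.89, limma adjusted p = 0.104), with no overlap. Tat, the tyrosine aminotransferase, was at 158, 155, 113 and 186 ppm with BLT-1 plus particles, against 97.01 to 127 (median 102) with particles alone (log2 fold change 0.49, 95% interval 0.27 to 0.72, limma adjusted p = 0.0853), with liver 19 inside the particles alone range. Pck1, the gluconeogenic carboxykinase, averaged 384 ± 38.99 ppm with BLT-1 plus particles and 296 ± 40.5 with particles alone (log2 0.38). Fkbp5, a chaperone of the glucocorticoid receptor, averaged 10.1 ± 0.612 ppm with BLT-1 plus particles and 7.08 ± 1.83 with particles alone (log2 0.49). Klf9, another target and the one lower at an unadjusted p below 0.05, averaged 37.6 ± 2.80 ppm with BLT-1 plus particles and 46.97 ± 4.91 with particles alone (log2 -0.31, limma adjusted p = 0.126). Of 15 settings other than the main fit and leaving out 1 liver, 3 called Ddit4 higher, 2 called Tat higher and 2 called Klf9 lower. Limma also called Tat without liver 19 (adjusted p = 0.00891).

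No clock gene was called in the main limma fit, and members lay on both sides of 0. The clock runs on CLOCK and BMAL1, which drive the Per and Cry repressors, with REV-ERB alpha as a repressor of Bmal1. Of 26 tested clock genes and outputs 0 were called and the median was 0.04. At an unadjusted p below 0.05, 7 were higher and 2 lower, beside 4.42% and 4.06% of all genes tested. Cry1, a repressor, was at 2.67, 2.42, 2.83 and 2.50 ppm with BLT-1 plus particles, against 0.984 to 2.01 (median 1.40) with particles alone (log2 fold change 0.58, 95% interval 0.31 to 0.86, limma adjusted p = 0.0858). Nr1d1, the gene of REV-ERB alpha, was at 1.03, 0.690, 1.097 and 1.29 ppm with BLT-1 plus particles, against 1.48 to 3.17 (median 2.15) with particles alone (log2 fold change -0.62, 95% interval -0.99 to -0.26, limma adjusted p = 0.189). In both genes the groups do not overlap. Of 14 settings other than the main fit and leaving out 1 liver, 1 called Cry1 and 0 called Nr1d1. The repressor Per2 averaged 3.72 ± 0.377 ppm with BLT-1 plus particles and 2.72 ± 0.315 with particles alone (log2 0.34). Usp2, a deubiquitinase with a daily rhythm, averaged 35.4 ± 4.105 ppm with BLT-1 plus particles and 23.2 ± 7.73 with particles alone (log2 0.65). The clock-driven activator Dbp averaged 7.21 ± 1.27 ppm with BLT-1 plus particles and 10.6 ± 1.53 with particles alone (log2 -0.50). The labels give no hour of day for any liver.

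Fmo5 (ENSMUSG00000028088.15), a flavin monooxygenase of hepatocytes, was at 108, 109, 96.8 and 98.3 ppm with BLT-1 plus particles, against 66.2 to 86.3 (median 76.7) with particles alone and 67.4 to 81.4 (median 73.6) in controls. It rose (log2 fold change 0.45, 95% interval 0.29 to 0.61, limma adjusted p = 0.0222) to values above every control. Gstt3 (ENSMUSG00000001665.12), a glutathione transferase, was at 24.996, 27.5, 26.2 and 23.4 ppm with BLT-1 plus particles, against 16.6 to 21.997 (median 19.8) with particles alone and 15.9 to 19.4 (median 18.3) in controls, and rose too (log2 fold change 0.38, 95% interval 0.24 to 0.52, limma adjusted p = 0.0236). Neither gene passed the test between particles alone and controls (log2 0.01, limma adjusted p = 0.978 for Fmo5 and log2 0.10, limma adjusted p = 0.376 for Gstt3). Without BLT-1 plus particles liver 6 or 7 both calls were lost, at an adjusted p of up to 0.123 for Fmo5 and 0.128 for Gstt3 by limma, and Gstt3 also lost its call without particles alone liver 17 (0.0521). With the number range as a term neither was called (both 0.0583). Por, the reductase that feeds electrons to cytochromes P450, was at 56.3, 48.6, 48.7 and 48.9 ppm with BLT-1 plus particles, against 26.4 to 44.3 (median 39.3) with particles alone (log2 fold change 0.43, 95% interval 0.11 to 0.76, limma adjusted p = 0.382), with no overlap. Of 28 tested P450 and xenobiotic receptor genes 0 were called, with 5 higher and 1 lower at an unadjusted p below 0.05. The list of conjugation genes does not hold Gstt3. Of its 30 tested genes 0 were called, with 5 higher and 0 lower at an unadjusted p below 0.05, and 3 lay wholly above. The shares of all genes tested were 4.42% higher, 4.06% lower and 1.06% wholly above.

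Sterol genes are the set closest to the known target of the inhibitor. The SREBP2 factor raises the mevalonate pathway enzymes when cell cholesterol is low. Of 25 tested cholesterol synthesis and SREBP2 genes 0 were called, 9 were lower and 0 higher at an unadjusted p below 0.05, 3 lay wholly below, and the median log2 fold change was -0.19 beside 0.003 for all genes. Sqle (ENSMUSG00000022351.15), the squalene epoxidase, was at 11.01, 11.2, 13.3 and 11.8 ppm with BLT-1 plus particles, against 14.7 to 18.6 (median 15.1) with particles alone and 10.4 to 13.8 (median 11.99) in controls (log2 fold change -0.36, 95% interval -0.52 to -0.20, limma adjusted p = 0.0853). The BLT-1 plus particles livers lie below all 8 others and overlap the controls. Idi1, an isomerase early in the pathway, was at 13.2, 11.8, 9.42 and 12.7 ppm with BLT-1 plus particles, against 13.9 to 24.4 (median 17.8) with particles alone (log2 fold change -0.63, 95% interval -0.94 to -0.32, limma adjusted p = 0.104), also with no overlap. Hmgcs1, an early synthase of the pathway, was at 23.8, 23.5, 30.2 and 33.03 ppm with BLT-1 plus particles, against 33.01 to 46.4 (median 40.6) with particles alone (log2 fold change -0.53, 95% interval -0.77 to -0.29, limma adjusted p = 0.0856), and differed by -0.88 in the first number range but -0.12 in the second. Dhcr7, a late reductase of the pathway, averaged 6.69 ± 0.490 ppm with BLT-1 plus particles and 8.66 ± 1.24 with particles alone (log2 -0.32). Fdps, the farnesyl diphosphate synthase, averaged 35.9 ± 7.37 ppm with BLT-1 plus particles and 47.2 ± 8.89 with particles alone (log2 -0.39). Over the list, 24 of 25 members were lower in the first number range (median -0.28) and 18 in the second (median -0.05). DESeq2 called 3 of them lower and 0 higher, and limma without liver 19 called Sqle (adjusted p = 0.0303). Against controls the list median was -0.20 with BLT-1 plus particles (3 called lower, 0 higher) and 0.02 with particles alone (0 lower, 2 higher). Unlike Sqle, Hmgcs1 and Idi1 were called below controls with BLT-1 plus particles (log2 -0.48 and -0.59, limma adjusted p = 0.0237 and 0.0361). With particles alone both were near controls (log2 0.04 and 0.04).

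**Figure D4:**
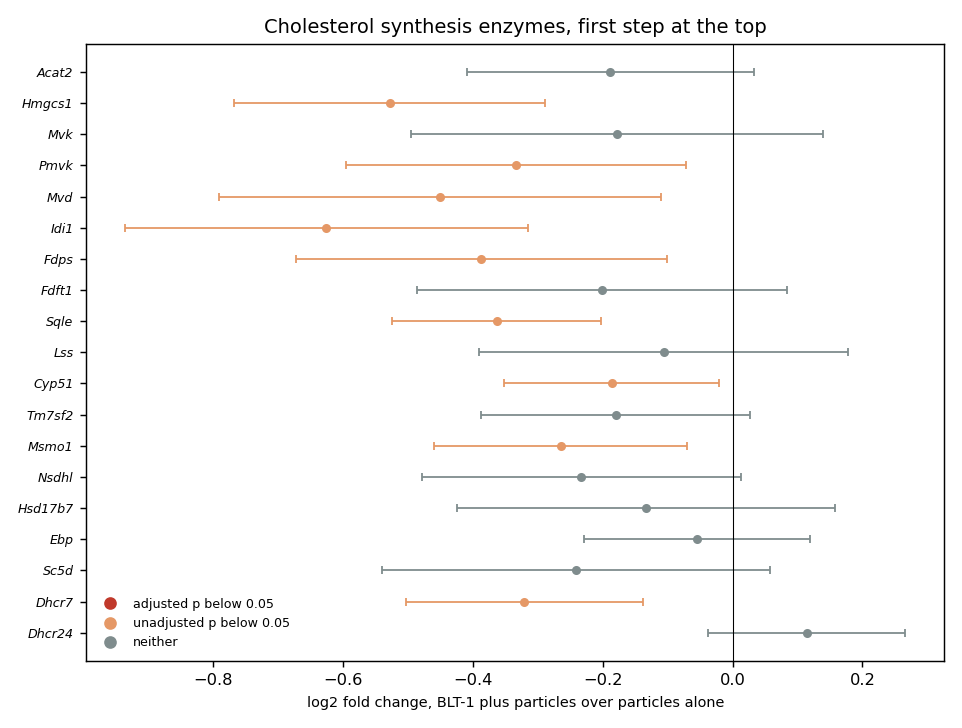
Log2 fold change of BLT-1 plus particles over particles alone with its 95% interval for 19 cholesterol synthesis enzymes, in the order of the pathway from top to bottom. Hmgcs1, Idi1 and Sqle lie at -0.53, -0.63 and -0.36 with intervals below 0, and no enzyme passes an adjusted p of 0.05.

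The sterol element was searched as TCACNCCAC and found in the windows of 1 of 19 list members with a window, Hmgcs1, beside 1.51% of tested genes. The window of Hmgcs1 is shown for that match, in capitals.
Hmgcs1 (chr13:119690101-119690400, plus strand): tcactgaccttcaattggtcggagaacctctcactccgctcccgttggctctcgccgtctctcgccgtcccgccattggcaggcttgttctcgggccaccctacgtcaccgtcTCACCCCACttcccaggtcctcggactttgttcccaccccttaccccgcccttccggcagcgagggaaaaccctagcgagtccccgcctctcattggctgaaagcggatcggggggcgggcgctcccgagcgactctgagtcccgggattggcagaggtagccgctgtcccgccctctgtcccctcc

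Genes of the uptake routes differed little. Of 20 tested SR-BI and high-density lipoprotein genes 0 were called and the median was 0.05, with Saa4 the only one past an unadjusted p of 0.05. Of 12 genes of the low-density lipoprotein uptake route 0 were called or past an unadjusted p of 0.05, all 12 intervals lay within 2-fold, and the values ran from -0.05 to 0.15. Apob, the structural protein of these lipoproteins, averaged 20.02 ± 2.64 ppm with BLT-1 plus particles and 17.9 ± 1.80 with particles alone (log2 0.15, interval -0.05 to 0.35). In bile acid synthesis 0 of 22 tested genes were called. At an unadjusted p below 0.05, 2 were higher and 2 lower, beside 4.42% and 4.06% of all genes tested. Cyp7a1, the rate-limiting enzyme, was at 22.7, 21.9, 17.1 and 16.4 ppm with BLT-1 plus particles, against 10.4 to 14.97 (median 12.5) with particles alone (log2 fold change 0.61, 95% interval 0.22 to 0.99, limma adjusted p = 0.234). Akr1d1, a reductase of the pathway, was at 19.1, 23.6, 20.8 and 22.3 ppm with BLT-1 plus particles, against 13.6 to 18.1 (median 15.7) with particles alone (log2 fold change 0.42, 95% interval 0.11 to 0.74, limma adjusted p = 0.37). Neither overlaps. Cyp8b1, which sets the share of cholic acid, averaged 43.02 ± 7.32 ppm with BLT-1 plus particles and 54.9 ± 7.62 with particles alone (log2 -0.35). Srebf1, the gene of the lipogenic factor SREBP1 and a target of LXR, was at 15.4, 13.3, 14.1 and 14.7 ppm with BLT-1 plus particles, against 9.30 to 12.9 (median 10.97) with particles alone (log2 fold change 0.35, 95% interval 0.12 to 0.57, limma adjusted p = 0.263), apart from all 8. Of 16 tested LXR targets and sterol export genes 0 were called, 3 were higher and 2 lower at an unadjusted p below 0.05, and 9 lay above and 7 below 0. Nr1h2, the gene of LXR beta, averaged 3.50 ± 0.830 ppm with BLT-1 plus particles and 4.68 ± 0.435 with particles alone (log2 -0.35). Of 21 fatty acid synthesis genes 0 were called, and the median was -0.06. Of 32 fatty acid oxidation and PPAR alpha genes 0 were called or past an unadjusted p of 0.05.

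Copper and zinc genes were read because BLT-1 binds copper. Of 21 tested 0 were called and the median was 0.06. At an unadjusted p below 0.05, 1 was higher and 1 lower, beside 4.42% and 4.06% of all genes tested. The zinc importer Slc39a4 averaged 8.36 ± 0.373 ppm with BLT-1 plus particles and 10.05 ± 0.813 with particles alone (log2 -0.24). The metallothionein Mt2 ran over a wide range in both groups, at 1770.2, 1971, 464 and 1937 ppm with BLT-1 plus particles, against 124 to 1604 (median 623) with particles alone. Its difference was 3.74 in the first number range and -0.06 in the second, on the log2 scale, and the interval over all livers was -0.37 to 2.98. Mt1, the other metallothionein, differed by 2.96 and 0.18.

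Acute phase genes, secreted by hepatocytes on interleukin 6 and glucocorticoid signals, were mostly higher with BLT-1 without a call in the main fit, and varied by animal. Of 35 tested 0 were called, 33 had a fold change above 0, 7 were higher and 0 lower at an unadjusted p below 0.05, and the median was 0.30. Saa1, a serum amyloid, was at 13947, 15453, 8609.6 and 15732 ppm with BLT-1 plus particles, against 986 to 10103 (median 6063) with particles alone and 419 to 13385 (median 3172) in controls (log2 fold change 1.40, 95% interval -0.03 to 2.83, limma adjusted p = 0.597). Orm2, an orosomucoid, was at 669.5, 711, 273 and 751 ppm with BLT-1 plus particles, against 37.8 to 441 (median 274) with particles alone. Liver 19 lies inside the particles alone range for both, and livers 4 and 5, both particles alone, are the lowest. Saa1 differed by 3.04 and 1.01, Orm2 by 3.49 and 0.90, and Lcn2, an iron-binding lipocalin, by 2.85 and 0.70 in the first and second number range on the log2 scale. The serum amyloid Saa4 was at 209.5, 209, 109 and 167 ppm with BLT-1 plus particles, against 68.9 to 125 (median 101) with particles alone (log2 fold change 0.78, 95% interval 0.42 to 1.15, limma adjusted p = 0.0858). Orm3 averaged 29.4 ± 11.3 ppm with BLT-1 plus particles and 11.9 ± 3.62 with particles alone (log2 fold change 1.19, 95% interval 0.53 to 1.86, limma adjusted p = 0.164). Without liver 19 limma called Saa4 (adjusted p = 0.0153) and Orm3 (0.0401). Of 15 settings other than the main fit and leaving out 1 liver, 1 called Saa4, 1 called Orm3 and 0 called Saa1 or Orm2. The Saa and Orm genes have near-identical copies. Over the list the median was 0.67 in the first range, with 34 of 35 members higher, and 0.22 in the second, with 27 higher. Without livers 4 and 5 only Iigp1 and Rtp4 stayed called over all genes.

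**Figure D5:**
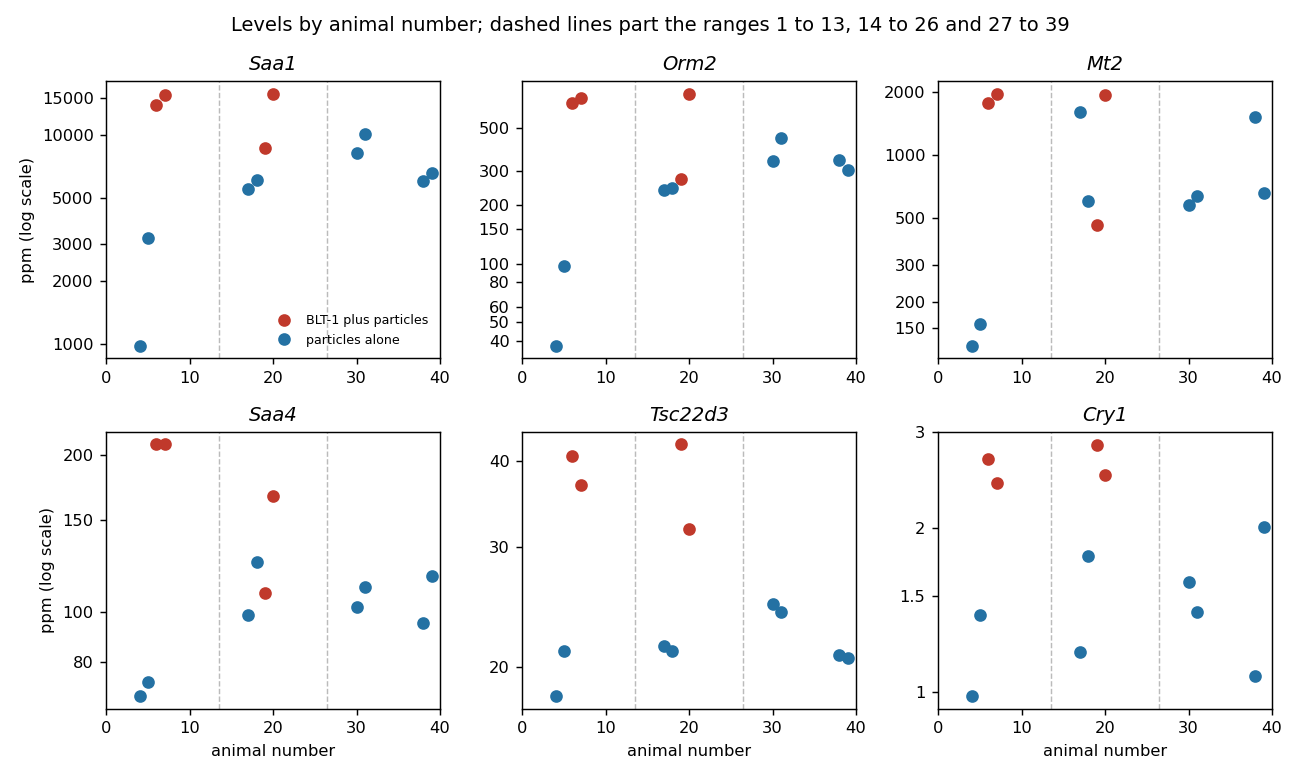
Levels (ppm, log scale) of Saa1, Orm2, Mt2, Saa4, Tsc22d3 and Cry1 by animal number in the BLT-1 plus particles (red) and particles alone (blue) livers, with dashed lines between the number ranges. Saa1, Orm2, Mt2 and Saa4 are lowest in livers 4 and 5, and liver 19 overlaps the particles alone livers, while Tsc22d3 and Cry1 separate the groups in both shared ranges.

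Amino acid enzymes had no call. Of 26 tested urea cycle and amino acid genes 0 were called, 23 had a fold change above 0, 5 were higher and 0 lower at an unadjusted p below 0.05, 6 lay wholly above and the median was 0.19. Bhmt, which remethylates homocysteine, was at 601, 612, 565 and 593 ppm with BLT-1 plus particles, against 392.5 to 519.7 (median 431) with particles alone (log2 fold change 0.41, 95% interval 0.17 to 0.64, limma adjusted p = 0.189). Nags, which makes the activator of the urea cycle, averaged 10.4 ± 0.589 ppm with BLT-1 plus particles and 8.47 ± 0.822 with particles alone (log2 0.27). Cth, which makes cysteine, averaged 64.5 ± 3.57 ppm with BLT-1 plus particles and 50.9 ± 3.62 with particles alone (log2 0.34). The arginase Arg1 averaged 771 ± 40.6 ppm with BLT-1 plus particles and 657 ± 59.8 with particles alone (log2 0.23). Outside the lists of amino acid genes, Prox1, a hepatocyte transcription factor, was at 17.2, 17.8, 12.7 and 10.7 ppm with BLT-1 plus particles, against 7.44 to 10.2 (median 9.14) with particles alone (log2 fold change 0.59, 95% interval 0.33 to 0.85, limma adjusted p = 0.0853). The growth factor gene Fgf1 was at 12.4, 13.8, 11.98 and 12.97 ppm with BLT-1 plus particles, against 8.36 to 11.3 (median 9.49) with particles alone (log2 fold change 0.38, 95% interval 0.20 to 0.56, limma adjusted p = 0.0858), and Rmdn2, a microtubule-associated protein, at 60.4, 79.4, 55.96 and 73.3 ppm with BLT-1 plus particles, against 44.8 to 51.8 (median 47.97) with particles alone (log2 fold change 0.47, 95% interval 0.26 to 0.68, limma adjusted p = 0.0853). For all 3 the groups do not overlap.

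No heat shock gene or mRNA of mitochondrial DNA was called in the main limma fit. Hsp90aa1, the inducible cytosolic chaperone, was at 402, 428, 415 and 444 ppm with BLT-1 plus particles, against 480.3 to 652 (median 588) with particles alone and 289 to 399 (median 357) in controls (log2 fold change -0.46, 95% interval -0.68 to -0.24, limma adjusted p = 0.0858), with no overlap between the particle groups. Of 20 tested heat shock genes 0 were called, 3 were lower and 0 higher at an unadjusted p below 0.05, and the median was -0.16. By number range it was 0.02 in the first and -0.19 in the second. Of 13 mRNAs of mitochondrial DNA 0 were called, 8 were higher and 0 lower at an unadjusted p below 0.05, and the median was 0.15. By number range it was 0.21 in the first and 0.05 in the second. Against controls the median was -0.34 with particles alone (10 called lower, 0 higher). With BLT-1 plus particles it was -0.18 (3 called lower, 0 higher), so both groups lay below controls. mt-Nd1, a complex I subunit, was at 7662, 7651, 6455 and 7742 ppm with BLT-1 plus particles, against 5518 to 6772 (median 6152) with particles alone (log2 fold change 0.26, 95% interval 0.14 to 0.38, limma adjusted p = 0.0858). mt-Rnr1, the small ribosomal RNA of the same genome, was at 6248, 6585, 6707 and 5184 ppm with BLT-1 plus particles, against 7135 to 9619 (median 7762) with particles alone (log2 fold change -0.38, 95% interval -0.56 to -0.20, limma adjusted p = 0.0858), lower in all 4 livers. In controls mt-Nd1 averaged 8276 ± 290 ppm and mt-Rnr1 averaged 5664 ± 427 ppm. Of 40 nuclear respiratory chain genes 0 were called, and 1 was past an unadjusted p of 0.05.

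No cell type marker apart from Pecam1 was called in the main fit. The medians of tested markers were 0.04 for 14 hepatocyte genes, -0.05 for 14 Kupffer cell genes, -0.07 for 10 stellate cell genes and -0.03 for 6 monocyte genes, with 0 called in each. They were 0.03 for 4 cholangiocyte, -0.05 for 5 erythroid, -0.03 for 4 adipocyte, 0.26 for 4 neutrophil, -0.25 for 2 B cell, -0.31 for 2 acinar cell and -0.13 for 2 platelet genes. Summed neutrophil markers, which include Lcn2, were 113 to 304 ppm with BLT-1 plus particles and 34.3 to 180.1 with particles alone. The Kupffer cell lectin Clec4f averaged 2.13 ± 0.430 ppm with BLT-1 plus particles and 2.75 ± 0.541 with particles alone, an interval of -0.58 to 0.07 on the log2 scale. Of 14 RNA interference genes and 25 endocytosis and lysosome genes 0 were called, with medians of 0.08 and 0.03. Of 19 purine genes 0 were called, with the guanine deaminase Gda at 7.10, 7.02, 5.76 and 5.96 ppm with BLT-1 plus particles, against 4.05 to 5.54 (median 4.58) with particles alone (log2 fold change 0.38, 95% interval 0.15 to 0.60, limma adjusted p = 0.2).

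Most of the largest fold changes belonged to genes whose values move in coarse steps and were not called. A fold change beyond 2-fold in either direction was found for 190 genes, and 157 of them belong to 405 tested genes of that kind, which are at 0 in some library and otherwise above 10 units. The 10 genes of largest spread between livers of a group were all of this kind, among them Snord3b4, Rnu4atac and mt-Ts1, with a smallest value above 0 of 129 to 4371 units. Of the other 33 genes Pecam1 was the only one called.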

How the data were processed

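The members, gene lists and tests were chosen with earlier results of these data known. Per the submitters' processing notes, reads were handled with bcl2fastq, Trim Galore 0.6.7, STAR 2.7.9a, Salmon 1.5.2, R 4.1.1 and DESeq2 1.32.0 on GRCm39. The deposited table gives a normalized signal per gene for 22 libraries, 16469 genes and 84 spike-ins. Each deposited signal is a whole number over 1 factor per library (100% of values whole within 0.001). These recovered numbers are not plain reads: the smallest value above 0 exceeds 10 units in 705 genes that are at 0 in some library, so counting intervals were not computed, and the labels name no molecular barcodes.

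Levels were rescaled on genes by TMM to ppm. limma 3.58.1 (R 4.3.3, trend) was fitted to log2 of the level plus 1 in all 22 libraries, for the 9599 genes with a mean of at least 1, with Benjamini-Hochberg adjustment and calls below 0.05. Fold changes on this scale understate those of low genes. edgeR 4.0.16 and DESeq2 1.42.0 on the recovered numbers were alternatives. The limma test was also run on simulated counts with 2-fold changes and the same spread setting for every gene. Those counts lack the coarse steps and number ranges of the data, so that run does not bear on the calls here. The p values of the main fit set a group difference against the spread within groups, estimated over all 22 libraries and moderated across genes. Lists (44, with 759 distinct genes tested) are described by counts and medians only.

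Named genes were Hprt, Scarb1, called genes, those of smallest p up to 10 in each direction with at least 5 ppm, genes called by edgeR, the 10 of largest spread, and from each list the 2 of smallest p and 2 of highest level. Other list members named, such as Igtp, Ifit1, Idi1, Ddit4, Nr1d1, Thy1 and mt-Rnr1, were chosen after their values were seen. Some genes that the rule names are not reported here.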

Additional observations from a re-analysis of the deposited data

Results flagged for a closer look

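Within the groups of 4 and 8 livers, 164 sets of values were screened for a single liver far from the others, and 17 stood out, where chance gives about 1 in 20 sets. BLT-1 plus particles liver 19 was the source of 5 of them, being lowest for mt-Nd1 (6455 ppm), mt-Co3 (13232), Mt2 (464) and Orm2 (273) and highest for Gbp7 (7.68). Particles alone liver 5 was highest for Gbp7 (18.8), Gbp6 (27.2), Irgm2 (10.99), Cxcl9 (121) and the share of Alb (1.498%), and lowest for Slc39a4 (8.33). Particles alone liver 4 was lowest for Prox1 (7.44). BLT-1 plus particles liver 6 was highest for Lipg, an endothelial lipase (1.54), and Por (56.3), and liver 7 was lowest for Kdr (6.21). Particles alone liver 31 was highest for Sqle (18.6) and liver 38 for Clec4g (18.2). All are values of single livers against the others of their own group. Controls were not screened, but controls 28 and 29 were far from the other controls for Mt1 (5133 and 6184 ppm, against 171 to 666). The same held for Fabp4 (167 and 164, against 15 to 22.5). They also had the highest control values of Saa1 (11958 and 13385) and Hprt (34.9 and 38.7), and so set the top of those control ranges.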

How the results depend on the processing

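The number of called genes depended on the setting. It was 0 on the spike-in scale as deposited (166 genes at an unadjusted p below 0.05), where the median log2 fold change of all genes is 0.17, and 5 with only the 12 livers, 2 with 4 livers against 4 in the shared number ranges and 2 without particles alone livers 4 and 5 (chosen after seeing the data). It was 25 by limma voom with quality weights, 95 by DESeq2 and 34 at an adjusted p below 0.1. Leaving out 1 liver gave 2 (without liver 6) to 25 (without liver 19), and 3 without liver 7. DESeq2 and edgeR kept all 9 genes and voom 8. With the number range as a term 8 were called, of which 4 (Iigp1, Rtp4, Pecam1 and Ppfibp2) were among the 9. The fit of only the 12 livers kept 3 of the 9 (Iigp1, Rtp4 and Tsc22d3), and the others had an adjusted p of 0.0516 to 0.0659 by limma. The 4 against 4 fit kept only Pecam1. Without controls 28 and 29 limma called 12 genes, among them all 9. No called gene changed direction in any alternative that gave it a fold change, and Samd9l and Gm19426 had none with a mean of at least 5 ppm. On the spike-in scale the list medians were -0.27 and -0.20 for the interferon lists, -0.03 for cholesterol synthesis and -0.01 for heat shock, all below the shift of 0.17.

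The Hprt log2 fold change reversed to 0.14 on the spike-in scale and 0.0124 with the number range, and ran from -0.0554 to 0.0263 with 1 liver left out. The Ifitm3 log2 fold change reversed to 0.10, 0.00698 and 0.0489 (spike-in scale, number range, 4 against 4). The B2m log2 fold change reversed to 0.16 on the spike-in scale and 0.0107 without livers 4 and 5, and ran from -0.0267 to 0.0177 with 1 liver left out. The Cxcl9 log2 fold change reversed to -0.0144 in the 4 against 4 fit and ran from -0.20 to 0.37. None of these genes was called, and the cause was not tested. No paired analysis was possible because animal numbers are not shared between the groups.

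Limits are 4 livers in the BLT-1 plus particles group, none of them among animals 27 to 39, values that are estimates and not reads, and low genes near 1 ppm, where depth leaves small changes undetectable.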
